A study of Mus musculus with 2 samples.

Results

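The cells described here are 1182 droplet barcodes from the intestinal epithelium of 1 mouse in which RNA encoded by mitochondrial DNA (mtDNA) made up 90% or more of all captured RNA molecules. They were chosen from 9872 barcodes that had at least 500 UMIs (counts of distinct RNA molecules, told apart by a random tag), 300 genes and 1000 counts in open-chromatin peaks. The chosen barcodes were 12.0% of these (95% exact binomial interval 11.3 to 12.6%). They are called high-mtDNA barcodes below, and they were compared with the 4236 passing barcodes in which mtDNA-encoded RNA gave under 60% of UMIs, called comparison barcodes. Another 4454 barcodes lay between 60 and 90%.

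The mouse was 55 weeks old and carried a TrnA mutation, in the mtDNA gene for the alanine tRNA, at a mutation load of 73%. Epithelial cells of the small intestine were stained for CD45, CD31, TER-119 and CD326 and with the dye DAPI, sorted, fixed with formaldehyde and profiled with the 10x Multiome kit. That kit reads RNA and open chromatin from the same droplet, and here it had an added step that retains mtDNA. All barcodes, the comparison barcodes included, came from this 1 mutant animal. Data from an animal without the mutation were not used here, so no p-value is given, all intervals cover counting error only, and nothing below measures the effect of the mutation.

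Mitochondria carry their own small genome, which encodes core subunits of the respiratory chain together with the ribosomal and transfer RNAs needed to translate them. All other mitochondrial proteins are encoded in the nucleus. In the intestine, stem cells at the crypt base give rise to absorptive enterocytes and to secretory goblet, Paneth, enteroendocrine and tuft cells, and enterocytes move up the villus as they mature and are shed at its tip. A droplet with a very high mtDNA share is often set aside in single-cell work as a damaged cell, while absorptive cells are also rich in mitochondria, and the nuclear-encoded RNA alone leaves few molecules with which to tell cell types apart.

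Over 12363 deposited barcodes the RNA library gave 71697200 UMIs and the chromatin library 197565000 peak counts (both to 6 significant digits), and no barcode was listed more than once. High-mtDNA barcodes were not shallow in RNA as a whole. Their UMIs ranged from 3425 to 26656 with a median of 7375.5, against a median of 5133.5 in comparison barcodes. The median count of mtDNA-encoded UMIs was 6847 against 2475.5, and that of nuclear-encoded UMIs was 496 (314 to 1834) against 2665.5. These values enter the rule by which the barcodes were chosen and are given as a description. Open chromatin took no part in that choice beyond the minimum: high-mtDNA barcodes held 534 to 41281 fragments in peaks, with a median of 3271 against 9202.5, and 92.0% of them lay under the comparison median.

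The threshold of 90% cut through a continuous range. The 220 barcodes just inside it, at 90 to 91%, had medians of 602.5 nuclear-encoded UMIs and 3698.5 fragments, and the 238 just outside it, at 89 to 90%, had 614 and 3596. Only 117 barcodes reached 95% or more. The minimum of 300 genes bore on this set in particular, since 2000 barcodes missed that minimum alone and 860 of those (43.0%) had 90% or more mtDNA-encoded UMIs.

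Most high-mtDNA barcodes fell among enterocyte-like cells by their open chromatin. All 9872 barcodes were clustered on peak fragments without RNA, and clusters were named from marker genes read in the RNA of their comparison barcodes, so that no high-mtDNA barcode named its own cluster. Of the 1182 high-mtDNA barcodes, 958 (81.0%, 78.7 to 83.2%) fell in enterocyte-like clusters, against 1245 of 4236 comparison barcodes (29.4%, 28.0 to 30.8%). The barcodes at 60 to 90% lay between, with 2535 (56.9%). Stem, cycling and secretory clusters together held 42 high-mtDNA barcodes (3.55%, 2.57 to 4.77%) and 2550 comparison barcodes (60.2%). Clusters left unnamed held 182 (15.4%) and 441 (10.4%).

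Every named epithelial class held some high-mtDNA barcodes, but in very different shares. Of all barcodes of a class, 20.2% of enterocyte-like barcodes were high in mtDNA-encoded RNA, against 1.23% of stem-like, 1.66% of cycling-like, 0.584% of goblet-like and 0.873% of Paneth-like barcodes. In counts these were 15 stem-like, 12 cycling-like, 8 goblet-like, 2 Paneth-like, 3 enteroendocrine-like and 2 tuft-like high-mtDNA barcodes. The 3 enteroendocrine-like and the 2 tuft-like barcodes were 1.48% and 1.98% of those small classes.

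**Figure D1:**
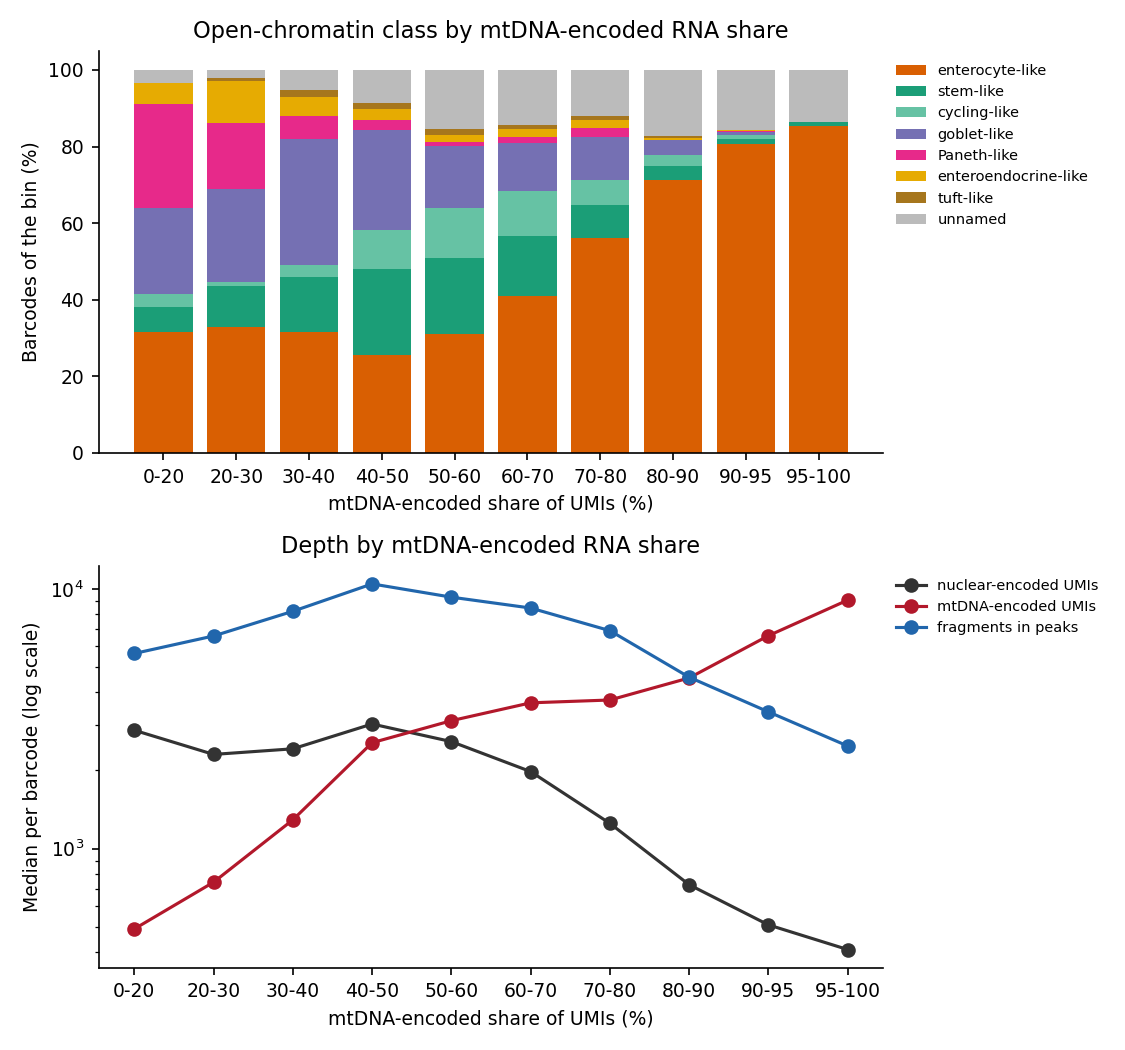
The upper panel stacks the open-chromatin classes (percent of barcodes) in bins of the mtDNA-encoded share of UMIs, and the lower panel gives the median nuclear-encoded UMIs, mtDNA-encoded UMIs and fragments per barcode on a log scale. Enterocyte-like barcodes take 25.5% of the bin at 40 to 50% and 85.5% of the bin at 95 to 100%, while median nuclear-encoded UMIs go from 3018 to 409 over the same bins.

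Above a mtDNA share of 50% each next bin held a larger enterocyte-like share, as the plot of classes by bin shows, while the bins under 50% had no such order. Enterocyte-like barcodes were 31.5% of the bin under 20%, 33.0% at 20 to 30%, 31.5% at 30 to 40%, 25.5% at 40 to 50%, 31.0% at 50 to 60%, 41.1% at 60 to 70%, 56.1% at 70 to 80%, 71.3% at 80 to 90% and 80.6% at 90 to 95%. Paneth-like barcodes went the other way, from 27.0% of the bin under 20% to 0.188% at 90 to 95%. Fragments per barcode moved with the share too, from a median of 10444 at 40 to 50% to 2484 at 95 to 100%. The part of chromatin depth in this order of classes was not tested beyond thinning each barcode to 1000 fragments, which gave 67.7% enterocyte-like high-mtDNA barcodes and 18.4% among comparison barcodes.

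How many high-mtDNA barcodes were called enterocyte-like depended on where clusters were drawn and named. The share was 44.4% at Leiden resolution 2 and 52.99% without the gene minimum, and it was 14.7% when clusters were named from the RNA of barcodes at 60 to 90%, which left 955 of the 1182 unnamed and was below the 18.4% of the barcodes at 60 to 90% themselves. In each of those 3 settings most of the remaining high-mtDNA barcodes went to unnamed clusters. Stem, cycling and secretory clusters took 4.06%, 9.65% and 4.48% of them. They took 15.3% when at least 1000 fragments in place of 1000 counts were asked for, and a Paneth-like cluster then held 126 high-mtDNA barcodes.

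The high-mtDNA barcodes were concentrated in 5 of the 18 clusters. They made up 42.0% of cluster A10 (226 of 538 barcodes), 41.3% of A11 (198 of 479), 38.0% of A0 (334 of 880), 29.3% of A7 (171 of 583) and 16.3% of A1 (143 of 875). The other enterocyte-like clusters held far fewer, with 5.68% of A9, 2.54% of A12, 2.23% of A15 and 1.31% of A4. A11, A0, A10, A12 and A7 had the lowest chromatin depth of all clusters, with medians of 2369, 2873.5, 3104.5, 3902 and 3917 fragments per barcode. All of these but A12 were rich in high-mtDNA barcodes, and A1 had a median of 7155. The part of chromatin depth in these shares was not tested.

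**Figure D2:**
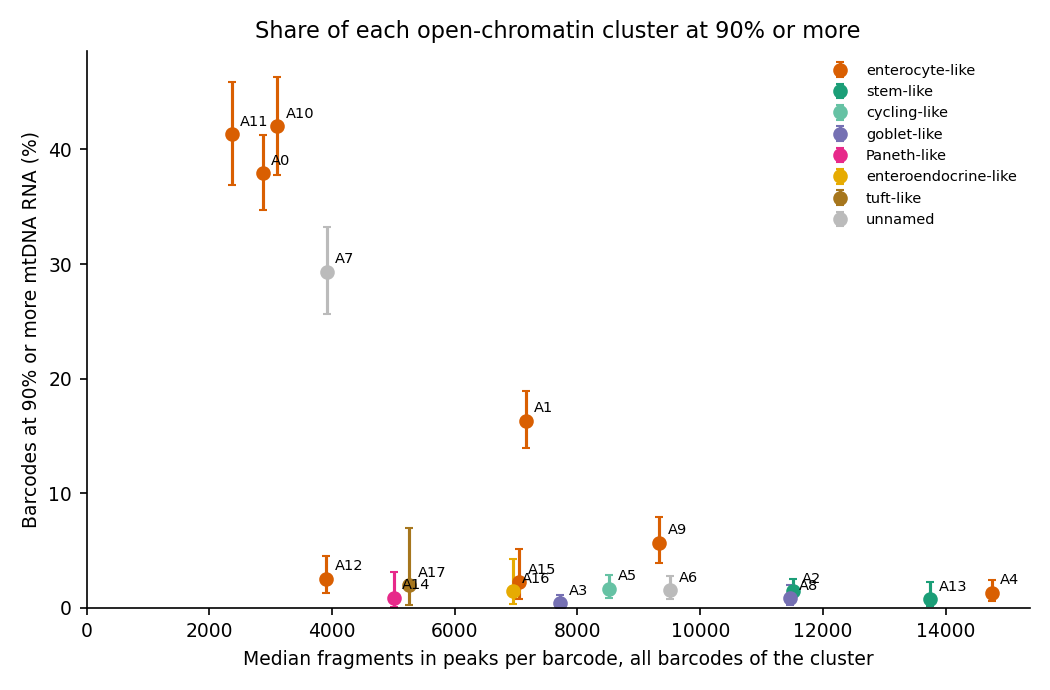
Each point is 1 open-chromatin cluster, placed by the median fragments in peaks of its barcodes (x axis) and the percent of its barcodes at 90% or more mtDNA-encoded RNA (y axis), with 95% exact binomial intervals. A0, A10 and A11 lie at 38.0 to 42.0% and A7 at 29.3%, all at low depth. A12, also at low depth, lies at 2.54%.

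Tmprss15 RNA stood higher in the clusters rich in high-mtDNA barcodes than in A9, A12, A15 and A4. Tmprss15 encodes enteropeptidase, the brush border protease that activates trypsinogen, and its RNA reached 486 UMIs per 1000000 nuclear-encoded UMIs (a scale written CPM here) in A0, 527 in A1, 954 in A10, 369 in A11 and 510 in A7. In A9, A12, A15 and A4 it was at 41.0, 17.1, 21.7 and 45.6 CPM. Within A10, A11 and A7 the high-mtDNA barcodes alone held 1185, 809 and 510 CPM. Tmprss15 was among the 10 leading RNA genes that described clusters A1, A7, A10 and A11 and was singled out after its values had been seen. It was not among those of A0. Other leading genes recurred too, such as Slc5a12 in A0 and A1 and Enpp3 in A7 and A10. Genes shared by these clusters were not searched for.

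Cluster A7 was left without a name. Its leading genes in the RNA of comparison barcodes were Clca4a, Nt5e, Bmp8a, Ada, Gprc5a and Tmprss15, and only 35 comparison barcodes were available to name it, in which Paneth markers had a median log2 ratio of 1.39 and enterocyte markers one of 1.24. A10 and A11, which hold 226 and 198 of the 958 enterocyte-like high-mtDNA barcodes, were named from hardly more, 37 and 51 comparison barcodes. Ada (adenosine deaminase) and Slc28a2 (a purine nucleoside transporter), which mark the villus tip, stood at 2851 and 4445 CPM in the 171 high-mtDNA barcodes of A7. In the high-mtDNA barcodes of A0 they stood at 184 and 128 CPM. In all barcodes of A12 they stood at 1702 and 3800 CPM, and in all of A7 at 2259 and 3541. Only 2.54% of A12 was high in mtDNA-encoded RNA, so these genes were not particular to clusters rich in such barcodes. The open chromatin of those 171 barcodes held enterocyte marker peaks at 2529 fragments per 1000000 (FPM) and Paneth marker peaks at 55.4, levels close to the 2883 and 64.9 of the enterocyte-like high-mtDNA barcodes.

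Summed over all peaks, the chromatin profile of the high-mtDNA barcodes was nearest to that of enterocyte-like comparison barcodes. Across 81799 peaks, Pearson's r of the log fragment level was 0.924 with enterocyte-like, 0.746 with goblet-like, 0.684 with cycling-like, 0.615 with stem-like, 0.599 with enteroendocrine-like, 0.586 with Paneth-like and 0.520 with tuft-like comparison barcodes. The summed profiles differed in depth, from 17167197 fragments in the enterocyte-like to 433159 in the tuft-like set, the part of that depth in the order was not tested, and peaks are not independent. The share of peak fragments near gene starts was 36.8% in high-mtDNA barcodes and 36.4% in enterocyte-like comparison barcodes. It differed between cell classes, at 42.0% in Paneth-like and 47.6% in tuft-like comparison barcodes. Fragments outside peaks were not available, so this share does not measure chromatin quality.

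Marker genes were then read one by one. Fragments were summed over peaks with their centre within 10 kb of a gene start, in all high-mtDNA barcodes and in all comparison barcodes, as FPM. A gene start was called where the groups differed at least 2-fold, the 95% counting interval of the ratio excluded no change and at least 20 fragments were seen. Of 34745 gene starts, 3.55% were called higher in high-mtDNA barcodes and 16.2% lower, with a median log2 ratio of -0.29. Of 21 enterocyte markers, 8 were higher and 0 lower, with a median of 0.89. Of 12 goblet markers 11 were lower (median -1.28), of 9 Paneth markers 4 (-1.89), of 11 stem markers 5 (-0.82), of 17 enteroendocrine markers 8 (-1.04) and of 12 tuft markers 3 (-0.44), and none of these was higher. Of 15 cycling markers none was called in either direction, and their median of -0.27 was near that of all gene starts.

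Among the absorptive genes, Lct, which encodes lactase, had 341 fragments in high-mtDNA and 805 in comparison barcodes, a log2 ratio of 2.12. Apoa4, an apolipoprotein of chylomicrons, had 1035 and 3113 (1.77), Fabp1, a fatty acid binding protein, 224 and 808 (1.50), and Alpi, intestinal alkaline phosphatase, 810 and 2981 (1.48). Tmprss15 had 259 and 209, a log2 ratio of 3.66. In the other direction, Muc2, the main mucin of goblet cells, had 16 fragments in high-mtDNA barcodes and 1497 in comparison barcodes, a log2 ratio of -3.19. Mmp7, which processes Paneth cell defensins, had 11 and 549 (-2.29), and Olfm4, a stem cell marker, 45 and 1494 (-1.70).

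The promoters of Tmprss15, Alpi and Muc2 are shown because their peaks stand for the absorptive and the goblet side of the placement, and they were picked with these values known. Each is the 250 bases before the gene start in RefSeq (build GRCm38.p6), written 5′ to 3′ on the gene's strand, and each overlapped 1 peak. Capitals mark matches, on either strand, to AGATAA, which GATA factors bind, GTTAAT (an HNF1 motif) or CAAAGTCCA (an HNF4 motif). Tmprss15 lies at chr16:79091098-79091347 on the minus strand and holds 1 HNF1 match. Alpi lies at chr1:87101607-87101856 on the minus strand and holds 1 HNF4 match. Muc2 lies at chr7:141690090-141690339 on the plus strand and holds 2 GATA matches, and its RefSeq start is 5363 bases from the start in the deposited gene list.
Tmprss15: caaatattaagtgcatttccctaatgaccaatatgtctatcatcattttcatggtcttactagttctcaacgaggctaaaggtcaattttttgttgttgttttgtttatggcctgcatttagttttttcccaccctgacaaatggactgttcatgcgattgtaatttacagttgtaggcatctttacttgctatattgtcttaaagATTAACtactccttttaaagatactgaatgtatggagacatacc
Alpi: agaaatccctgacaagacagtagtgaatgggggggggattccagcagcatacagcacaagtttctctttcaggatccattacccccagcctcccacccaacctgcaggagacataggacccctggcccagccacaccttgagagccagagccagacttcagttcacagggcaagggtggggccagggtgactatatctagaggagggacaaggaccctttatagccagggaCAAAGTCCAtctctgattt
Muc2: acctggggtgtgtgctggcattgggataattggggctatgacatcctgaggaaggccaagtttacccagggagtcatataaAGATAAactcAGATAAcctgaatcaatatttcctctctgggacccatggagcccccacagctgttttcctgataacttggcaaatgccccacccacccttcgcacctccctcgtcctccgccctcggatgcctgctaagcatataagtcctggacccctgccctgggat

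The peak over the Tmprss15 promoter had a fragment in 139 of 1182 high-mtDNA barcodes, or 32.1 FPM. Among comparison barcodes the level was 2.91 FPM for the enterocyte-like, 2.64 FPM for the goblet-like and 0.880 FPM for the stem-like class. The Alpi promoter peak stood at 29.5 FPM in high-mtDNA barcodes and at 20.5, 6.59 and 7.76 in those comparison classes. The Muc2 promoter peak had 5 fragments, in 4 of 1182 high-mtDNA barcodes (0.978 FPM), against 51.2 FPM in goblet-like comparison barcodes. Over 32851 promoters of the same length, 9.99% held the GATA letters, 6.43% the HNF1 letters and 0.384% the HNF4 letters, which were in 2 of the 23 promoters of enterocyte markers. A match describes letters and says nothing of binding.

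The 42 high-mtDNA barcodes in stem, cycling and secretory clusters were put there by their chromatin, so their marker peaks are a description. Their stem marker peaks stood at 690 FPM and their enterocyte marker peaks at 1149, beside 678 and 1187 in cycling-like, 828 and 939 in stem-like and 498 and 1072 in goblet-like comparison barcodes and 369 and 2883 in enterocyte-like high-mtDNA barcodes. Their RNA took no part in that choice. In it the enterocyte markers summed to 19183 CPM, above the 2256 of stem-like, 2704 of cycling-like and 5263 of goblet-like comparison barcodes and below the 29296 of enterocyte-like high-mtDNA barcodes.

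Summed RNA of Paneth and goblet markers stood at similar levels in 3 sets of high-mtDNA barcodes. The set from stem, cycling and secretory clusters includes 8 goblet-like and 2 Paneth-like barcodes. Paneth markers gave 15029 CPM in enterocyte-like high-mtDNA barcodes, 15989.9 in those of A7 and 16021.5 in those of stem, cycling and secretory clusters. The level was 6983 in enterocyte-like and 267014 in Paneth-like comparison barcodes. Per barcode these markers gave 8.27, 8.63 and 8.93 UMIs in the 3 high-mtDNA sets and 21.4 in enterocyte-like comparison barcodes. Goblet markers gave 16588, 16781 and 19952 CPM in the 3 sets, against 66398 in goblet-like comparison barcodes. Marker peaks did not follow, with Paneth peaks at 70.2 and goblet peaks at 189 FPM in all high-mtDNA barcodes against 531 in Paneth-like and 904 in goblet-like comparison barcodes. The part of free RNA in droplets in these levels was not tested.

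Cells outside the epithelium were hardly seen. In all 1182 high-mtDNA barcodes together, markers of T cells and intraepithelial lymphocytes gave 22 UMIs from 8 of 13 genes, endothelial markers 13 from 4 of 9, myeloid markers 9 from 6 of 10, B and plasma cell markers 2 from 2 of 10 and fibroblast and muscle markers 1 from 1 of 10. The 7 erythroid and 7 neuronal and glial markers gave no UMI, and 0 UMIs allow up to 3. Lymphocyte marker peaks stood at 98.0 FPM in high-mtDNA and 73.2 in all comparison barcodes, and the T cell receptor gene Trac alone gave 454 of the 501 and 2817 of the 3830 fragments behind these levels.

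Nuclear-encoded RNA was then compared within the enterocyte-like class, 958 high-mtDNA against 1245 comparison barcodes, as summed UMIs in CPM with the same rule for a call. Of 10909 genes with at least 20 UMIs, 7.88% were higher and 17.3% lower, with a median log2 ratio of -0.29. Every direction below is relative to nuclear-encoded RNA: per UMI of all kinds, mtDNA-encoded ones included, 0 genes were higher, 10791 were lower and the median was -3.18. That scale lowers every log2 ratio by the same amount, which follows from the mtDNA-encoded share that chose the groups. Values on it are given as a description. The class differed in its make-up between the groups: 447 of the comparison barcodes were in A4, 216 in A1 and 212 in A9, while the high-mtDNA barcodes were mostly in A0, A10 and A11. A4 weighs more in the sums than its barcodes show. Its comparison barcodes had a median of 4102 nuclear-encoded UMIs, against 502, 516 and 1562 in A0, A10 and A11. Enterocyte markers gave 12548 CPM in all barcodes of A4 and 28995.5 in those of A0, and Gata4 546 and 195. The part of A4 in the differences of the class was not tested. Cluster A1 held both groups at a like chromatin depth (medians of 6539 and 7705.5 fragments) and a like median of nuclear-encoded UMIs (546 and 643.5), and values within it are given for part of the lists and genes. The comparison barcodes of A1 had a longer upper tail, with a 90th percentile of 2532 nuclear-encoded UMIs against 934.4, so deep barcodes weigh more in their sums, and their median of all UMIs was 1108.5 against 7860. There 3610 genes could be called, of which 5.1% were higher and 7.7% lower. In A0, which held 82 comparison barcodes, 2648 genes could be called, of which 2.49% were higher and 5.97% lower.

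**Figure D3:**
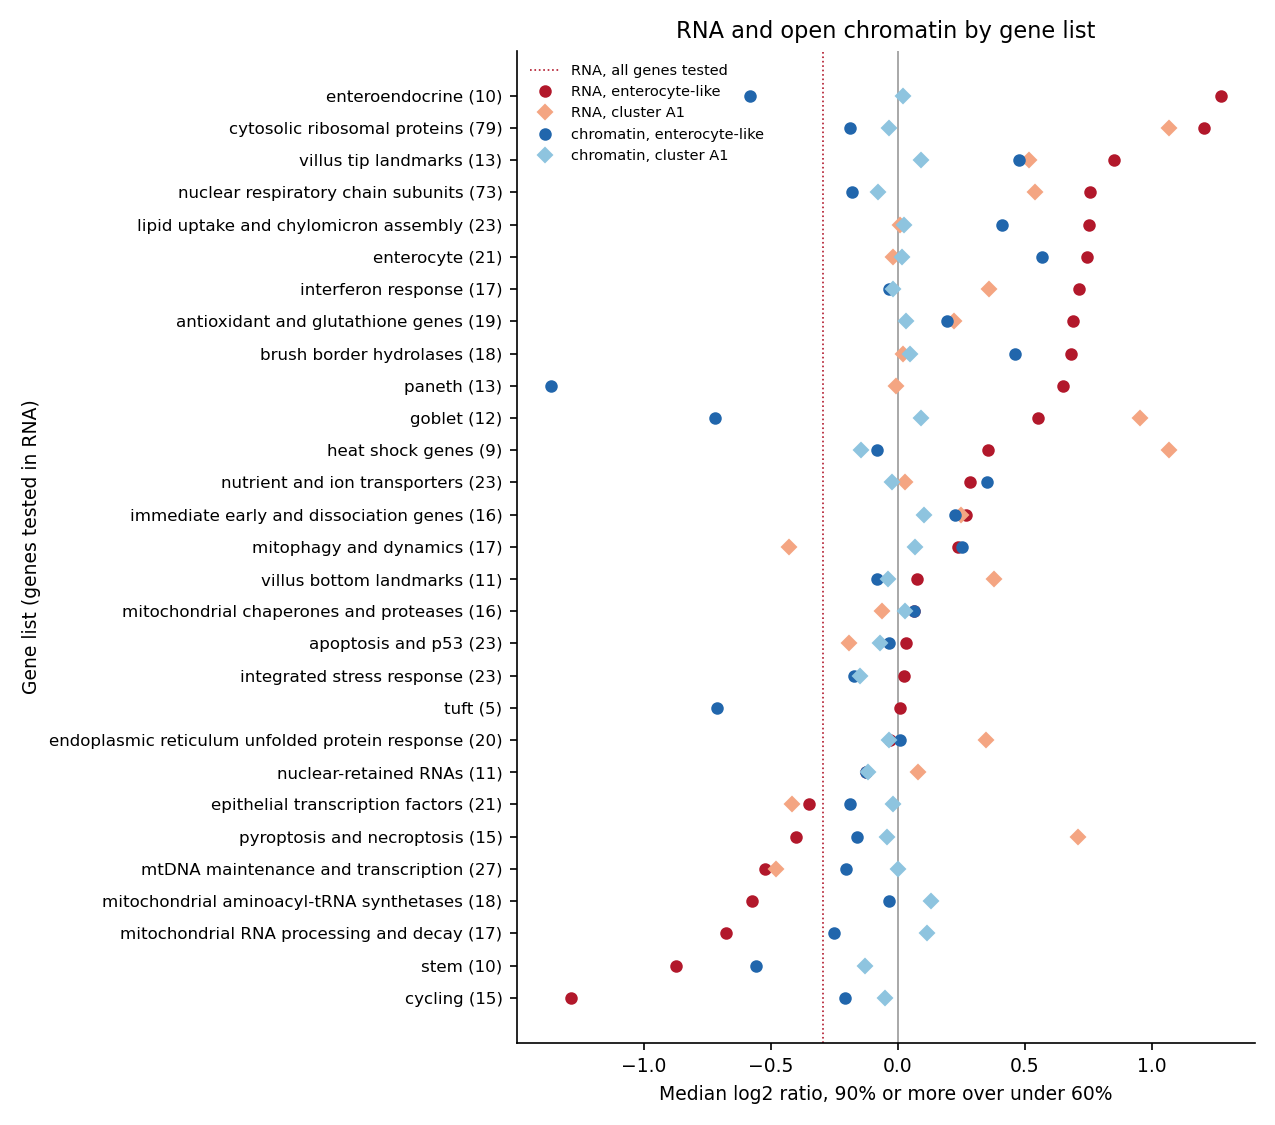
Each line is a gene list with the number of its genes tested in RNA in brackets, and the x axis gives the median log2 ratio of high-mtDNA over comparison barcodes, on the CPM scale for RNA and the FPM scale for chromatin. Circles are the whole enterocyte-like class and diamonds cluster A1, and the dotted line is the RNA median over all genes. Ribosomal protein RNA lies at 1.21 and 1.07 with chromatin near 0 (the RNA values turn to negative per UMI of all kinds), while the enterocyte list goes from 0.75 to -0.02 within A1.

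Part of the genes of absorptive function were higher in the class, and none of the enterocyte markers was called within A1. Of 21 enterocyte markers 10 were higher and 0 lower (median 0.75, and -2.14 per UMI of all kinds), and within A1 none was called in either direction and the median was -0.02. Alpi had 257 UMIs in high-mtDNA and 419 in comparison barcodes, 487 and 110 CPM, a log2 ratio of 2.15 (1.92 to 2.37). In A1 it had 41 and 56 UMIs (1.00), just short of a call. Apoa4 had 1493 and 2642 UMIs (2.03) and in A1 168 and 421 (0.12). Tmprss15 had 395 and 215 UMIs, a log2 ratio of 3.73 (3.49 to 3.98), and in A1 56 and 79 (0.95), also just short of a call. Of 23 genes of lipid uptake and chylomicron assembly, 9 were higher and 0 lower, and of 18 brush border hydrolases, 7 and 0. Neither list had a called gene in A1.

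Transporters and landmarks of the villus axis had called genes in both directions. Over all genes of the class 7.88% were higher and 17.3% lower. The lower counts of these lists in the class were all under that share, and the higher counts above theirs. Of 23 nutrient and ion transporters 6 were higher and 3 lower. Slc46a1, the intestinal folate transporter, had 20 and 21 UMIs (2.78), while Slc10a2, the ileal bile acid transporter, had 7 and 230 (-2.19). Of 13 villus tip landmarks 6 were higher and 1 lower, with 2 higher and 0 lower of 10 within A1. Krt20, a keratin of mature villus cells, had 765 and 1677 UMIs (1.72), and in A1 93 and 169 (0.59, not called). Egfr, the epidermal growth factor receptor, was the villus tip landmark called lower, with 27 and 897 UMIs (-2.20). Of 11 villus bottom landmarks 2 were higher and 1 lower. The higher ones were Rpl41, a ribosomal protein gene (926 and 2625 UMIs, 1.35), and Gsdmc4 (20 and 69, 1.07). The lower one was Gsdmc2 (4 and 111, -1.94).

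RNA of cytosolic ribosomal proteins was higher in both settings. Of 79 genes 62 were called higher and 0 lower, with a median log2 ratio of 1.21 that turned to -1.68 per UMI of all kinds, and within A1 53 were higher and 0 lower with a median of 1.07. Together they made up 80101 CPM in enterocyte-like high-mtDNA barcodes and 34221 CPM in comparison barcodes. Rpl39 had 1056 and 328 CPM (1.69), Rps12 4040 and 1312 (1.62), Rpl32 2377 and 774 (1.62) and Rpl27 372 and 122 (1.61). In UMIs per barcode the order was the other way, with 44.1 ribosomal protein UMIs in a high-mtDNA and 105 in a comparison barcode. Open chromatin at their starts was not higher for any of the 79, was lower for 3 and had a median log2 ratio of -0.19.

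Nuclear-encoded subunits of the respiratory chain, the partners of the mtDNA-encoded subunits, behaved likewise on this scale. Of 73 genes 18 were higher and 0 lower (median 0.76, and -2.13 per UMI of all kinds), and within A1 12 of 65 were higher and 0 lower (median 0.54). Atp5e of ATP synthase had 314 and 717 UMIs (1.66), Ndufs8 of complex I 45 and 110 (1.56), Uqcrq of complex III 240 and 709 (1.29) and Ndufa4 372 and 1107 (1.28). Chromatin at the starts of these genes was higher for 0 of 73 and lower for 1, with a median of -0.18. Per barcode the list gave 10.2 UMIs in high-mtDNA and 34.6 in comparison barcodes.

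Genes that maintain and express mtDNA were not higher as a list. Of 27 genes of mtDNA maintenance and transcription 0 were higher and 4 lower (median -0.52), both under the shares over all genes (7.88% and 17.3%). Esrrg, a nuclear receptor that activates mitochondrial genes, had 20 and 1572 UMIs (-3.44), Ppargc1b, a coactivator of such receptors, 37 and 828 (-1.63) and Nrf1, a factor that regulates nuclear genes of the respiratory chain, 47 and 717 (-1.08). Of 17 genes of mitochondrial RNA processing and decay 1 was higher and 5 lower. Lrpprc, which stabilises mitochondrial mRNA, had 29 and 1013 UMIs (-2.27), and in A1 12 and 15 (1.12, not called), so its direction turned there. Pnpt1, a mitochondrial RNA nuclease, had 9 and 208 UMIs (-1.68). In A1 only 6 genes of the first and 1 of the second list had enough UMIs to be called, and none was.

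Among mitochondrial aminoacyl-tRNA synthetases, which charge the mitochondrial tRNAs, 1 of 18 was higher and 6 lower. Nars2 for asparagine had 8 and 293 UMIs (-2.34) and Wars2 for tryptophan 5 and 167 (-2.21). Lars2, for leucine, stood apart at 11599 and 18531 UMIs, 21999 and 4868 CPM, a log2 ratio of 2.18. In A1 it had 1885 and 847 UMIs (2.60). Per 1000 mtDNA-encoded UMIs the order turned, with 1.65 in high-mtDNA and 5.17 in comparison barcodes of the class, and per barcode the values were 12.1 and 14.9. Gm19951, Peak1 and Il31ra went with Lars2: their log2 ratios per nuclear-encoded UMI were 2.17, 2.09 and 2.06, and per barcode they gave 3.82, 6.30 and 0.462 UMIs against 4.73, 8.21 and 0.618. Whether reads of other RNA were counted for these 4 genes was not tested, and their values are uncertain for that reason.

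Stress and death programs had called genes in both directions, mostly at counts under the shares over all genes of 7.88% higher and 17.3% lower. Only the counts higher among immediate early genes and among genes of pyroptosis and necroptosis were above them in the class. Of 23 genes of the integrated stress response 1 was higher and 2 lower: Ddit3 (CHOP) had 27 and 75 UMIs (1.38), Atf3 9 and 175 (-1.43), and Eif2ak4 (the kinase GCN2) 2 and 95 (-2.72, interval -5.78 to -0.83). None of the 4 genes of this list that could be called in A1 was called there. Of 20 genes of the endoplasmic reticulum unfolded protein response 0 were higher and 3 lower, among them its sensors Ern1 (20 and 835 UMIs, -2.53) and Atf6 (20 and 573, -1.99). Of 16 mitochondrial chaperones and proteases 1 was higher, Hspe1, a mitochondrial chaperonin, with 135 and 418 UMIs (1.22). Heat shock genes had 0 called of 9 in the class (median 0.36) and 3 higher of 5 within A1, and immediate early genes, which respond to cell dissociation, had 4 higher and 2 lower of 16 and none called of 10 within A1.

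Of 17 genes of mitophagy and mitochondrial dynamics 1 was higher and 2 lower, both under the shares over all genes (7.88% and 17.3%). Fis1, of mitochondrial fission, had 87 and 274 UMIs (1.20), but in A1 6 and 22 (-0.43, not called). Opa1, of fusion, had 50 and 726 (-1.01). Of 23 apoptosis and p53 genes 1 was higher and 3 lower, also under those shares, with the survival factor Bcl2l1 at 17 and 350 UMIs (-1.51). Of 15 genes of pyroptosis and necroptosis 3 were higher and 2 lower. Gsdmd, the pore-forming gasdermin, had 177 and 426 UMIs (1.59), and in A1 38 and 59 (0.81, not called).

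Of 17 interferon response genes 6 were higher and 0 lower, with a median of 0.71. Isg15 had 14 and 18 UMIs (2.49) and Irf7 32 and 50 (2.21), and in A1 they had 1 and 4, and 4 and 9. No gene of this list was called in A1, where 5 could be. Of 19 antioxidant genes 5 were higher and 0 lower, and Gpx4, which reduces lipid peroxides, had 103 and 247 UMIs (1.59). Of 21 epithelial transcription factors 0 were higher and 3 lower, under the shares over all genes (7.88% and 17.3%). The bile acid receptor Nr1h4 had 43 and 1255 UMIs (-2.02), Gata4 65 and 1689 (-1.85) and Ppara 41 and 883 (-1.58). Chromatin at the starts of those 3 genes had log2 ratios of -0.39, 0.00 and 0.35.

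RNA and chromatin of crypt and secretory markers differed in direction for some lists. Of 13 Paneth markers 5 were higher and 0 lower in RNA (median 0.65, and -2.23 per UMI of all kinds), while 4 of 7 were lower and 0 higher in chromatin. Defa24 and Defa30, Paneth cell defensins that belong to a family of near-identical genes, had 3266 and 9525 UMIs (1.31) and 1586 and 4547 (1.33), and their log2 ratios were 0.10 and -0.11 within A1. Of 12 goblet markers 4 were higher and 3 lower in RNA, and 0 and 4 in chromatin, and within A1 3 of 7 were higher and 0 lower in RNA (median 0.95). Tff3, a peptide secreted by goblet cells, had 2517 and 6152 UMIs (1.56). Olfm4 had 801 and 1796 UMIs (1.69) beside 30 and 322 chromatin fragments (-1.27). The other 5 called stem markers were lower, such as Smoc2 with 7 and 271 UMIs (-2.42). Of 10 enteroendocrine markers 5 were higher and 2 lower in RNA, against 0 and 5 of 16 in chromatin, and of 5 tuft markers none was called in RNA. No cycling marker had enough UMIs in A1 to be called. Of 15 cycling markers 8 were lower and 0 higher in the class, with Pola1, a DNA polymerase subunit, at 8 and 483 (-3.06) and Knl1, of the kinetochore, at 5 and 276 (-2.93).

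Outside the lists, the genes furthest above were Cyp2c29 (18 and 12 UMIs, 3.44), Rec8 (39 and 44, 2.68), Rps24-ps3 (36 and 42, 2.63), Slc6a20b (36 and 43, 2.60), Arl14 (82 and 112, 2.40), Bmp1 (59 and 81, 2.39) and Cyp3a11 (120 and 167, 2.38), beside Gm19951, Peak1 and Il31ra. Cyp2c29 and Cyp3a11 encode cytochrome P450 enzymes of drug metabolism and belong to families of similar genes, and Rps24-ps3 is a ribosomal pseudogene, so their counts are uncertain. In A1 these 7 genes had 3 to 24 UMIs in high-mtDNA barcodes. Those furthest below were Pard3b (32 and 5008 UMIs, -4.44), Lrmda (6 and 652, -3.91), Gm8979 (26 and 2633, -3.81), Rapgef5 (9 and 807, -3.63), Far2 (16 and 1347, -3.54) and Gmds (130 and 9890, -3.40). Frmd4b had 1 and 303 UMIs (-5.39, interval -10.70 to -2.90) and Metap1d 1 and 263 (-5.19, -10.50 to -2.70). Adcy8 and AC106834.1 had 0 UMIs against 302 and 187. In A1 Pard3b had 5 and 35 UMIs (-1.36) and Gmds 16 and 108 (-1.31).

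The direction of RNA moved with the length of the gene. Genes called higher had a median genomic span of 6.15 kb and genes called lower one of 74.6 kb, over the 95.2% of tested genes with a span in RefSeq. Genes under 5 kb had a median log2 ratio of 0.77, those of 20 to 50 kb -0.34 and those over 200 kb -1.55. Within A1 the same bins had 0.72, -0.11 and -0.83. Chromatin at the starts of the same genes went from -0.06 to -0.25. Of the lists above, ribosomal protein genes had a median span of 3.16 kb, Paneth markers 3.30 kb and respiratory chain subunits 7.11 kb, while stem markers had 57.3 kb and cycling markers 47.5 kb. Some lists went against this order: brush border hydrolases, of which 7 were higher and 0 lower, had a median span of 29.9 kb, lipid uptake genes (9 higher, 0 lower) 19.5 kb and transporters (6 higher, 3 lower) 35.9 kb.

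**Figure D4:**
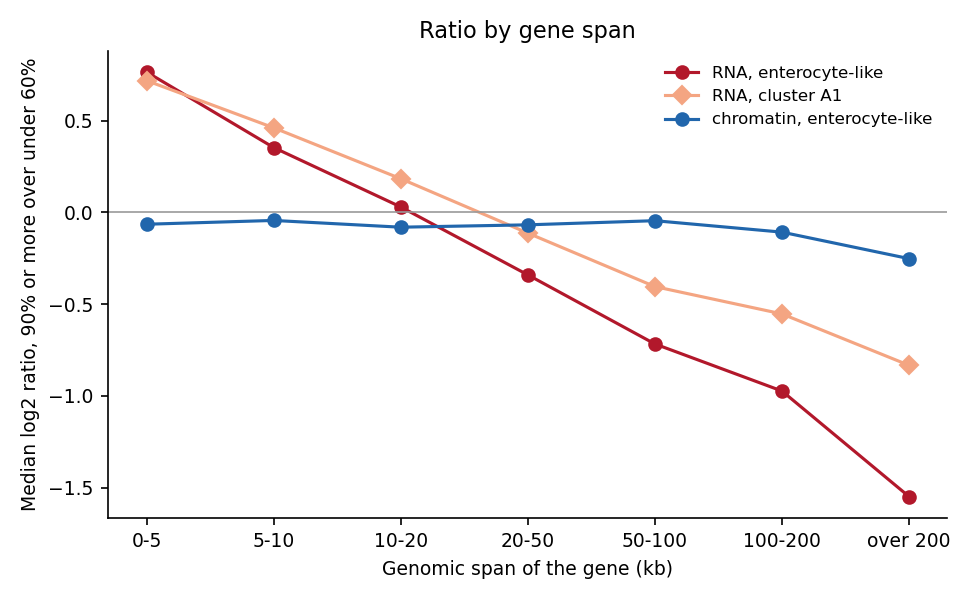
The x axis gives bins of genomic span (kb) and the y axis the median log2 ratio of high-mtDNA over comparison barcodes. RNA of the enterocyte-like class goes from 0.77 to -1.55 and RNA within A1 from 0.72 to -0.83, while chromatin stays between -0.04 and -0.25.

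Ribosomal protein genes were higher than other genes of short span. The 67 ribosomal protein genes under 5 kb had a median of 1.21 with 54 called higher, and the other 1011 genes under 5 kb had a median of 0.72 with 301 called higher. Genes over 200 kb gave 7.45% of nuclear-encoded UMIs in enterocyte-like high-mtDNA barcodes and 12.6% in comparison barcodes, and genes under 5 kb gave 20.5% and 9.82%. Of 11 genes tested from a list of long noncoding RNAs, not all of which stay in the nucleus, 1 was higher and 2 lower. Both counts were near the shares over all genes (7.88% and 17.3%), and the gene higher was Gas5 (132 and 455 UMIs, 1.07). Malat1, the most abundant of the list, stood at 7930 CPM in enterocyte-like high-mtDNA and 11554 in enterocyte-like comparison barcodes, and Neat1 at 1364 and 960. Over all classes Malat1 stood at 8215 CPM in high-mtDNA and 9690 in comparison barcodes, and Neat1 at 1444 and 815. What part gene span itself has in the ratios of the gene lists was not tested.

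Open chromatin within the enterocyte-like class differed mostly downward, and hardly at all within A1. Of 32187 gene starts 1.26% were higher and 12.6% lower, and within A1 0.528% of 21391 were higher and 0.776% lower with a median log2 ratio of -0.01. No list had more than 1 gene start called in A1. Tmprss15 had 218 and 114 fragments (3.09), Slc46a1 396 and 712 (1.31) and Apoa4 803 and 1691 (1.08). Outside the lists Enpp3, an ectonucleotidase, had 292 and 402 fragments (1.70) and E230025N22Rik 21 and 555 (-2.57), with log2 ratios of 0.28 and -0.02 in A1. Of 818 genes higher in RNA with both values, 22 were also higher in chromatin and 31 lower, and of 1814 lower in RNA, 207 were lower and 6 higher. Across 10355 genes Pearson's r between both log2 ratios was 0.25, and genes are not independent.

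The mtDNA-encoded RNA of these barcodes also had a different make-up, which is given as a description because the same reads chose the barcodes. Messenger RNAs made up 23.1% of mtDNA-encoded UMIs in high-mtDNA barcodes and 9.79% in comparison barcodes, and the ribosomal RNAs mt-Rnr1 and mt-Rnr2 made up nearly all of the rest. Within the enterocyte-like class the mRNA share was 23.7% and 11.9%, with 18.7% in the barcodes between 60 and 90%, and within A1 it was 24.0% and 13.6%. Stem- and cycling-like comparison barcodes had 7.01%. There were 0.301 mRNA UMIs for each rRNA UMI in high-mtDNA barcodes and 0.108 in comparison barcodes.

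**Figure D5:**
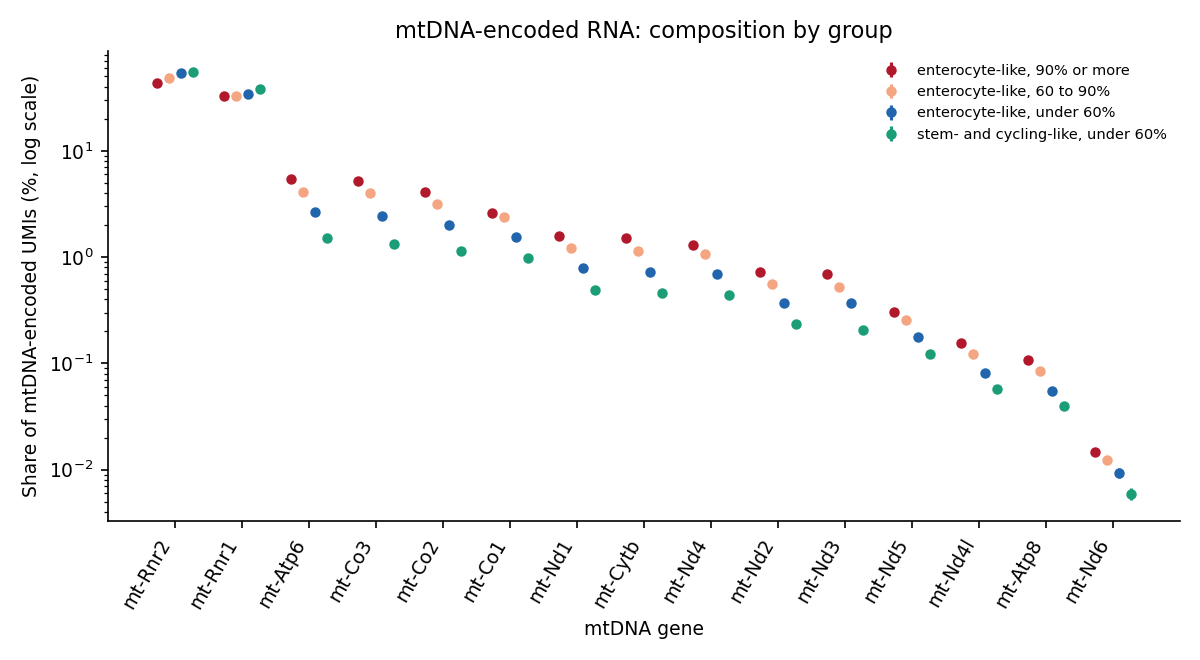
Each point is the share of an mtDNA-encoded gene among mtDNA-encoded UMIs (y axis, percent, log scale) in 4 groups of barcodes, with 95% exact binomial intervals mostly smaller than the points. All 13 mRNAs are ordered from enterocyte-like high-mtDNA barcodes down to stem- and cycling-like comparison barcodes, and mt-Rnr2 goes the other way, from 43.3% to 54.9%.

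The 3 genes by which these cells had been marked behaved unequally. Mt-Rnr2, the large ribosomal RNA, had 1381 to 13772 UMIs per high-mtDNA barcode with a median of 2991, against 1350 in comparison barcodes, but its share of mtDNA-encoded UMIs was lower, at 43.9% against 53.6%. Mt-Atp6 of ATP synthase had 9 to 2180 UMIs with a median of 351.5 against 33, and its share was 5.25% against 2.13%. Mt-Co3 of cytochrome c oxidase had 12 to 1949 with a median of 348 against 30, and 5.08% against 1.96%. The extremes were few: the 10th and 90th percentiles of high-mtDNA barcodes were 155.2 and 635 UMIs for mt-Atp6, 161 and 594.9 for mt-Co3 and 2061 and 4442 for mt-Rnr2. The ranges of both groups overlapped for all 3 genes.

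All 13 mRNAs had a larger share in enterocyte-like high-mtDNA than in enterocyte-like comparison barcodes, and their log2 ratios of shares lay between 0.66 for mt-Nd6 and 1.10 for mt-Co3. The other subunits of complex IV, mt-Co2 and mt-Co1, had 1.03 and 0.77, mt-Cytb of complex III 1.07, and mt-Atp6 and mt-Atp8 of ATP synthase 1.03 and 0.97. The remaining complex I subunits were mt-Nd1 at 0.99, mt-Nd2 at 0.97, mt-Nd4l at 0.95, mt-Nd3 at 0.92, mt-Nd4 at 0.90 and mt-Nd5 at 0.77. Within A1 the 13 ratios lay between 0.34 for mt-Nd6, whose interval of -0.25 to 1.00 included no change, and 0.98 for mt-Atp6. The share of mt-Rnr1 was about the same in both groups, 33.0% and 34.0% of the enterocyte-like class.

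The transfer RNA that carries the mutation could hardly be read. Mt-Ta gave 5 UMIs in 5 of 1182 high-mtDNA barcodes and 6 UMIs in 6 of 4236 comparison barcodes, and all 22 tRNA genes together gave 267 UMIs, or 0.00312% of the mtDNA-encoded UMIs of high-mtDNA barcodes. No peak on the mitochondrial chromosome was present in the matrix, and the mutation load of single barcodes was not analysed here.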

How the data were processed

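RNA and open chromatin were read with the 10x Multiome kit from the sorted small intestinal epithelium of 1 mouse. The deposited values are raw whole-number counts, UMIs per gene and counts per peak, and per the submitters' processing notes the authors made them with Cell Ranger ARC 2.0.2 on mm10. Of the peak counts 87.6% were even, as 2 transposase cuts per fragment give, so each was converted to fragments by rounding up its value over 2. Rules for barcodes and calls stand in the report.

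Chromatin was clustered by latent semantic indexing (30 components less those that follow depth), 15 nearest neighbours and Leiden at resolution 1. A cluster took a name where at least 3 detected markers had a median log2 ratio of 0.4 or more, 0.4 above the next list. The ratio was read in the RNA of its comparison barcodes, with 5 CPM added to each level. No name was given with under 10 comparison barcodes, or where the 10 leading genes held several markers of another list, more than of its own. Nor was one given where median UMIs were far under that of all barcodes and no marker of the list was among those 10 genes. Groups were compared by summed counts with exact 95% intervals of the ratio, without a test, since there is 1 animal. Intervals cover counting error only. Peaks with their centre within 10 kb of a gene start were assigned to that gene, so neighbouring genes share peaks. Outside the lists the text names the 10 genes higher and the 10 lower whose intervals lay furthest from no change, fewer for chromatin. The members, the gene lists and the markers were chosen with earlier results of these data known. Lists named here are those reported, and a list is described by its counts and median.

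Scrublet's automatic threshold called 0 doublets and was taken not to have worked, so leaving out the highest 8% of scores (835 barcodes, 23 of them high in mtDNA-encoded RNA) was an alternative. The comparison of summed counts was tested on data simulated for all high-mtDNA against all comparison barcodes (14081 genes), not for the smaller comparison within the enterocyte-like class: 1.07% of unchanged genes were called, and 100% of genes raised and 90% of genes lowered 4-fold, but only 42% and 50% of those changed 2-fold. The simulated counts held counting error only, without differences between barcodes or in cluster make-up. They therefore do not give the rate of false calls in the real data. Gates of the sort are not given in the sources used here. Python 3.11.15 was used with numpy 2.4.6, scipy 1.17.1, scikit-learn 1.9.0, leidenalg 0.10.2, scanpy 1.11.5 and matplotlib 3.10.9.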

Additional observations from a re-analysis of the deposited data

How the results depend on the processing

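No paired analysis was possible because there is 1 animal. The share of high-mtDNA barcodes in enterocyte-like clusters was 78.1% at a threshold of 85% and 85.5% at one of 95%, 64.3% with comparison barcodes under 50% and 14.7% with those at 60 to 90%, 61.6% and 44.4% at resolutions 0.5 and 2, 52.99% with no gene minimum, 54.5% at 1000 fragments, 67.7% thinned to 1000 fragments, which left out 83 high-mtDNA and 115 comparison barcodes, and 65.3% by the 15 nearest comparison barcodes. It was above the comparison share in every setting but that at 60 to 90%. The comparison share was 27.1%, 18.4%, 17.9%, 19.7%, 24.2%, 18.4% and 10.1% under 50%, at 60 to 90%, at resolutions 0.5 and 2, with no gene minimum, thinned and by nearest barcodes. By nearest barcodes only 57.0% of enterocyte-like comparison barcodes were placed in their own class. In that setting RNA clusters of 247 and 192 comparison barcodes, with enterocyte medians of 2.17 and 1.19, stayed unnamed for their low UMIs. Stem, cycling and secretory clusters held 5.39% and 0.855% at 85 and 95%, 2.37% at resolution 0.5, 9.65% with no gene minimum and 15.3% at 1000 fragments. The cause of these shifts was not tested.

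Genes higher and lower in RNA were 569 and 675 at 95%, 329 and 818 against 60 to 90%, 184 and 278 within A1, 66 and 158 within A0, and 0 and 10791 per UMI of all kinds. Gene starts higher and lower were 91 and 1648 against 60 to 90% and 113 and 166 within A1, and goblet marker peaks within 2 kb had a median of -2.06. Fewer barcodes, and so fewer genes that can be called, are part of the settings at 95% and within A1 and A0. Within A1, within A0 and a limit on nuclear-encoded UMIs for names, which moved no share, were chosen after seeing the data.

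Per UMI of all kinds every log2 ratio is lower by the same amount, which is set by the mtDNA-encoded share that chose the groups. The turns in direction follow from that shift and are no check of single genes or lists. The median of all genes is -3.18 on this scale. Every list and gene whose RNA was higher per nuclear-encoded UMI that is named here turned, except Tmprss15 and Cyp2c29. List medians were -1.68 (ribosomal proteins), -2.14 (enterocyte), -2.13 (respiratory chain subunits) and -2.23 (Paneth). Genes were at -0.72 (Gm19951), -0.79 (Peak1), -0.51 (Cyp3a11), -0.21 (Rec8), -0.48 (Arl14), -0.25 (Rps24-ps3), -0.29 (Slc6a20b), -0.49 (Bmp1), -0.83 (Il31ra), -0.74 (Alpi), -0.85 (Apoa4), -1.19 (Rpl39), -1.26 (Rps12), -1.26 (Rpl32), -1.27 (Rpl27), -1.22 (Atp5e), -1.32 (Ndufs8), -1.59 (Uqcrq), -1.60 (Ndufa4), -0.71 (Lars2), -1.58 (Defa24), -1.55 (Defa30), -1.32 (Tff3), -1.20 (Olfm4), -1.51 (Ddit3), -1.66 (Hspe1), -1.69 (Fis1), -1.30 (Gsdmd), -0.39 (Isg15), -0.68 (Irf7), -1.16 (Krt20), -0.10 (Slc46a1) and -1.29 (Gpx4). Within A1 the enterocyte median was -0.020, the Paneth median -0.0074, Lrpprc 1.12, Defa30 -0.11 and Fis1 -0.43, and within A0 Bmp1 was -0.40, Opa1 0.043 and Gsdmd -0.58. With 1 animal, no setting leaves out a replicate.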
